A study of Mus musculus with 6 samples.

Results

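The circadian clock genes described here are Arntl, Clock, Per1, Per2, Per3, Cry1, Cry2, Nr1d1, Nr1d2 and Dbp, taken by gene identifier from the 38293 genes of a count table of infarcted mouse hearts. All 10 were found in the table and all 10 were among the 14746 genes that passed the filter on low counts. None of them differed between genotypes after adjustment for multiple testing. Their levels differed between single hearts, however: Per1 spanned a 4.44-fold range over the 6 hearts and Arntl a 3.22-fold range, whereas Clock spanned 1.14-fold. Over the hearts Per2, Per3 and Dbp ran opposite to Arntl, with Pearson r between -0.89 and -0.93, none of which had an adjusted exact permutation p under 0.05.

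The mammalian clock is a transcriptional loop that runs in nearly every cell, cardiomyocytes included. ARNTL (BMAL1) and CLOCK form a heterodimer that binds E-boxes and activates the Per, Cry, Nr1d and Dbp genes. PER and CRY proteins repress that heterodimer, while the nuclear receptors NR1D1 and NR1D2 (REV-ERB alpha and beta) repress Arntl. Arntl mRNA therefore peaks at the opposite time of day from Dbp, Per3 and the Nr1d genes, and the level of any of these genes in a single heart depends on the hour at which the heart was taken.

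Heart tissue came from 3 Zeb2 fl/fl mice, which carry the floxed Zeb2 gene (named WT in the sample labels), and from 3 Zeb2 cKO mice, which carry the same floxed gene together with a Cre recombinase driven by the cardiomyocyte promoter Myh6. Zeb2 encodes a zinc finger transcription factor, and the deletion is meant for cardiomyocytes only, so all other cells of the cKO heart keep the gene. Mice of both genotypes were adults on a C57BL/6J (backcrossed) background, and all had their left anterior descending artery tied off 14 days before collection. The labels place the tissue in the border of the infarct, whereas the methods of the study speak of the remote zone. The hour of collection is not given in the sources used here, nor is it stated whether hearts of both genotypes were collected in the same session. A genotype difference and a difference in collection hour therefore cannot be told apart for these genes, since each mouse was sampled once.

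Libraries held 37288174 to 51136331 counts, of which 60.5% to 67.0% fell on mitochondrially encoded genes, and 6868 to 10906 counts per library fell on the 10 clock genes. The lowest count of any of them was 78, for Per2 in fl/fl replicate 2, where counting error alone is 11.3%. Zeb2 itself was at 61.3, 116.05 and 71.9 CPM (counts scaled to library size, TMM-normalized) in the fl/fl hearts and at 59.6, 72.6 and 66.5 CPM in the cKO hearts, so the groups overlapped at the targeted gene in this whole tissue. The fl/fl replicate 2 library stood apart: all 6 fibroblast markers and all 6 macrophage markers were highest there, and 5 of 6 cardiomyocyte markers were lowest. Summed fibroblast markers reached 7952 CPM in it, against 1433 to 1976 CPM in the other 5 libraries, and summed cardiomyocyte markers were 9230 CPM against 15524 to 19685 CPM. None of the cardiomyocyte, fibroblast, macrophage or endothelial markers was at 0 in any library. The 6 adipocyte markers had at most 25 counts per library, and only Adig passed the filter. Adig was counted 4, 3 and 3 times in fl/fl and 20, 10 and 15 times in cKO hearts (log2 fold change 1.83, SE 0.40, unadjusted p = 0.00284 and adjusted p = 0.957 in edgeR). Its groups did not overlap, as in 3.39% of tested genes on the higher side. Adipoq (3, 2 and 5 against 25, 8 and 9 counts), Plin1 and Cidec were likewise highest in cKO replicate 1, the heart with the lowest Arntl and the highest Dbp. Retn (2, 0 and 0 against 3, 3 and 3 counts) and Lep (at most 1 count) did not single out that heart. These are raw counts, and the cKO replicate 1 library was the deepest (51136331 counts). The part of adipocytes in the clock gene values was not tested. Values without fl/fl replicate 2 are given below for some of the genes. In whole tissue, fewer cells of a type and less RNA per cell cannot be told apart.

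Promoter windows from RefSeq (GRCm38.p6, 250 bases before to 50 bases after an annotated start) were found for 9 of the 10 genes, Per2 being the exception. Motifs were searched by their letters on both strands. The sequences shown carry sites through which these genes are known to regulate each other, with the matched letters in capitals and positions counted from the first transcribed base, with no position 0. Per3 carries D-box letters, TTATGTAA, at -205 and -158. D-boxes are the sites of DBP and its relatives TEF and HLF, and 1.056% of all 32851 windows held TTATGTAA or TTACGTAA. The 250 bases before the Per3 start (chr4:151044666-151044915, minus strand) read as follows.
Per3 upstream: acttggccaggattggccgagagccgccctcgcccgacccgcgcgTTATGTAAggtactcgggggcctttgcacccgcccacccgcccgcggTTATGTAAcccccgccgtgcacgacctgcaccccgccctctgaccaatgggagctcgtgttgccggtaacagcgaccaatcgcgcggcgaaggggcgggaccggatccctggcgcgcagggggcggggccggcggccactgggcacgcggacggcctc
Arntl holds the letters AAAGTAGGT at 2 places, the Arntl form of an element bound by the ROR activators and the REV-ERB repressors. These letters were found in 0.183% of windows. The form was chosen after Arntl, so its match there is no test. Other forms of the element were not searched. Both matches lie beside the second annotated start of Arntl, at -10 (chr7:113207491-113207519, plus strand) and 27 (chr7:113207527-113207555, plus strand).
Arntl first site: gattggtcggAAAGTAGGTtagtggtgcg
Arntl second site: gggaaggcagAAAGTAGGTcagggacgga
Per1 and Cry1 hold the E-box CACGTG, the site of the ARNTL and CLOCK heterodimer, which was present in 7.15% of windows. The Per1 match is at -166 (chr11:69098771-69098800, plus strand) and the Cry1 match at -60 (chr10:85185097-85185126, minus strand).
Per1 E-box: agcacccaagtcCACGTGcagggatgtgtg
Cry1 E-box: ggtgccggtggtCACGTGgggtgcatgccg
The letters CACCTG, the core of sites that ZEB proteins bind, were found in 20.2% of all windows and, among the 10 clock genes, in 1 of the Per1 windows. Among further clock transcription factors described below, the windows of Npas2, Hlf and Bhlhe41 and both windows of Tef held them too. None of these motifs was found in the windows of Clock, Cry2, Nr1d1, Nr1d2 or Dbp, which says only that the letters are not in those 300 bases.

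Arntl (ENSMUSG00000055116, chromosome 7, 113207465 to 113314126, plus strand, GRCm38), the activating subunit whose rhythm defines the loop, was at 9.72, 20.8 and 14.5 CPM in fl/fl replicates 1, 2 and 3 and at 6.45, 10.3 and 10.3 CPM in cKO replicates 1, 2 and 3. The highest values were those of fl/fl replicates 2 and 3, but fl/fl replicate 1 lay within the cKO range, so the groups overlapped. Means were 15.0 ± 5.54 CPM in fl/fl and 9.04 ± 2.24 CPM in cKO hearts (SD, n = 3 each). The log2 fold change, cKO against fl/fl, was -0.73 (SE 0.31, 95% interval -1.46 to 0.0033, unadjusted p = 0.0508 and Benjamini-Hochberg adjusted p = 0.957 in edgeR's quasi-likelihood test). Without fl/fl replicate 2 it was -0.42, and without fl/fl replicate 1 it was -0.96. The heart with the most Arntl, fl/fl replicate 2, was also the one with the highest summed fibroblast markers (7952 CPM) and macrophage markers (735 CPM, against 187 to 260 CPM elsewhere), and their part in the Arntl value was not tested.

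Clock (ENSMUSG00000029238, chromosome 5, 76209868 to 76304792, minus strand), the partner of ARNTL, was the steadiest of the 10. It was at 54.9, 52.4 and 59.6 CPM in the fl/fl hearts and at 53.3, 53.7 and 53.5 CPM in the cKO hearts. The cKO values lay inside the fl/fl range. Its log2 fold change was -0.056 (SE 0.11, 95% interval -0.32 to 0.20), and 96.6% of tested genes had a wider range over the 6 libraries.

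**Figure D1:**
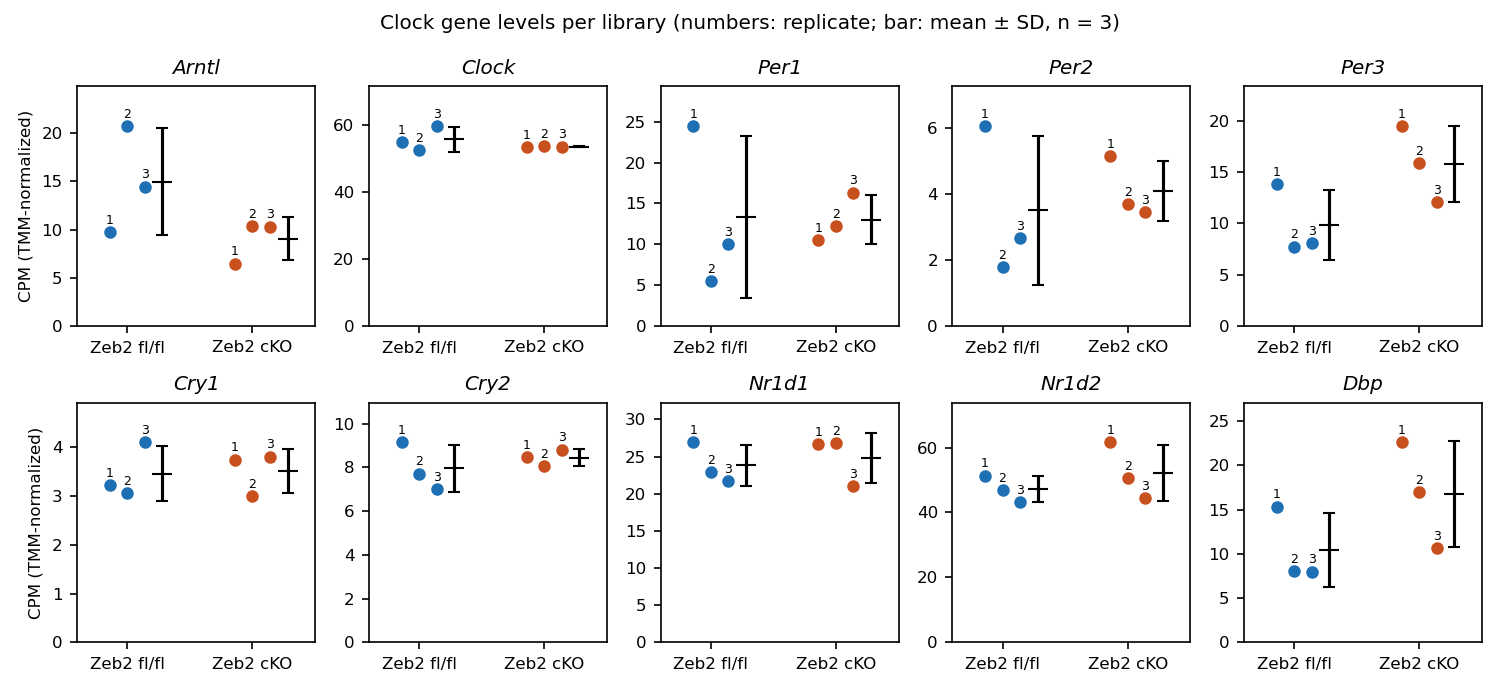
Level of each clock gene in every library, in CPM on linear axes that start at 0; points are hearts numbered by replicate, and bars give the mean ± SD of 3 hearts per genotype. Arntl is highest in fl/fl replicates 2 and 3 (20.8 and 14.5 CPM), where Per3 and Dbp are lowest, and no gene separates the genotypes completely.

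The Period genes encode repressors of the ARNTL and CLOCK heterodimer, and Per1 and Per2 spread most widely among the fl/fl hearts. Per1 (chromosome 11, 69095217 to 69109960, plus strand), which is also induced within hours by glucocorticoids and light signals, was at 24.5, 5.51 and 10.03 CPM in fl/fl and at 10.5, 12.2 and 16.3 CPM in cKO hearts. The fl/fl hearts held both the highest and the lowest value, and the cKO hearts lay between them. With means of 13.3 ± 9.91 and 13.02 ± 2.99 CPM (SD, n = 3), its log2 fold change of -0.033 had a 95% interval of -1.23 to 1.16, the widest among the clock genes. Only 4.87% of tested genes had a larger range.

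Per2 (chromosome 1, 91415982 to 91459324, minus strand) was at 6.05, 1.78 and 2.66 CPM in fl/fl and at 5.14, 3.69 and 3.44 CPM in cKO hearts. Here too fl/fl replicate 1 was highest and fl/fl replicate 2 lowest, with the cKO hearts between. The log2 fold change was 0.23 (SE 0.44, 95% interval -0.82 to 1.28). Without fl/fl replicate 1 the log2 fold changes of Per1 and Per2 were 0.75 and 0.89, and without fl/fl replicate 2 they were -0.40 and -0.088, and Per1 was also above 0 without cKO replicate 1 (0.10) or cKO replicate 2 (0.011). The direction of neither gene held when single libraries were left out.

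Per3 (ENSMUSG00000028957, chromosome 4, 151003652 to 151044665, minus strand) was the clock gene with the smallest p. It was at 13.8, 7.75 and 8.07 CPM in fl/fl hearts and at 19.5, 15.9 and 12.1 CPM in cKO hearts. The groups overlapped by 1 pair of hearts, since fl/fl replicate 1 lay above cKO replicate 3. Means were 9.88 ± 3.42 and 15.8 ± 3.72 CPM (SD, n = 3), and the log2 fold change was 0.68 (SE 0.28, 95% interval 0.018 to 1.34). The unadjusted p was 0.0454 and the adjusted p 0.957 (edgeR, Benjamini-Hochberg), which put Per3 at rank 245 of the tested genes. An exact permutation test of its log2 CPM gave a two-sided p of 0.2, where 3 hearts against 3 cannot give less than 0.1. The log2 fold change was 1.00 without fl/fl replicate 1 and 0.53 without fl/fl replicate 2.

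The Cryptochrome genes, whose proteins are the stronger repressors of the loop, stayed within narrow ranges. Cry1 (chromosome 10, 85131700 to 85185064, minus strand) was at 3.21, 3.05 and 4.09 CPM in fl/fl and at 3.74, 3.00 and 3.80 CPM in cKO hearts, and its log2 fold change of 0.026 had a 95% interval of -0.41 to 0.46. Cry2 (chromosome 2, 92403646 to 92434043, minus strand) was at 9.13, 7.70 and 7.01 CPM in fl/fl and at 8.47, 8.04 and 8.80 CPM in cKO hearts, with a log2 fold change of 0.087 (95% interval -0.24 to 0.41). In both genes the genotypes overlapped, and the interval leaves room for a change of either sign.

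Nr1d1 and Nr1d2 encode the REV-ERB repressors of Arntl. Nr1d1 (chromosome 11, 98767932 to 98775333, minus strand) was at 26.9, 22.9 and 21.7 CPM in fl/fl hearts and at 26.7, 26.8 and 21.0 CPM in cKO hearts (log2 fold change 0.059, 95% interval -0.29 to 0.41). Nr1d2 (chromosome 14, 18204054 to 18239127, minus strand) was at 51.3, 46.8 and 43.3 CPM in fl/fl and at 61.6, 50.5 and 44.4 CPM in cKO hearts (log2 fold change 0.15, 95% interval -0.22 to 0.51). The highest Nr1d2 value was that of cKO replicate 1, the heart with the lowest Arntl, but the groups overlapped. Nr1d1 overlaps the end of the neighbouring gene Thra on the other strand, with which it shares 8.55% of its exon bases, and 29.6% of the longest Nr1d2 transcript matched the annotated gene AC170187.1 at 95% identity or more, and how reads shared with such neighbours were counted is not given in the sources used here.

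Dbp (ENSMUSG00000059824, chromosome 7, 45705088 to 45710203, plus strand) encodes a D-box-binding activator that is a direct target of ARNTL and CLOCK and is often read as the output of the loop. Its level was 15.3, 8.02 and 7.99 CPM in fl/fl hearts and 22.6, 17.0 and 10.6 CPM in cKO hearts. As for Per3, fl/fl replicates 2 and 3 were lowest, cKO replicate 1 was highest, and fl/fl replicate 1 lay above cKO replicate 3. Means were 10.4 ± 4.22 and 16.7 ± 5.99 CPM (SD, n = 3), with a log2 fold change of 0.68 (SE 0.36, 95% interval -0.16 to 1.52, unadjusted p = 0.0980 in edgeR). It was 1.06 without fl/fl replicate 1, 0.52 without fl/fl replicate 2 and 0.40 without cKO replicate 1. Dbp shares 18.0% of its exon bases with Sphk2 on the opposite strand, and the strand setting of the counting is not given in the sources used here. Sphk2 was at 7.67, 5.24 and 7.71 CPM in fl/fl and at 6.83, 6.82 and 7.80 CPM in cKO hearts, an order unlike that of Dbp.

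**Figure D2:**
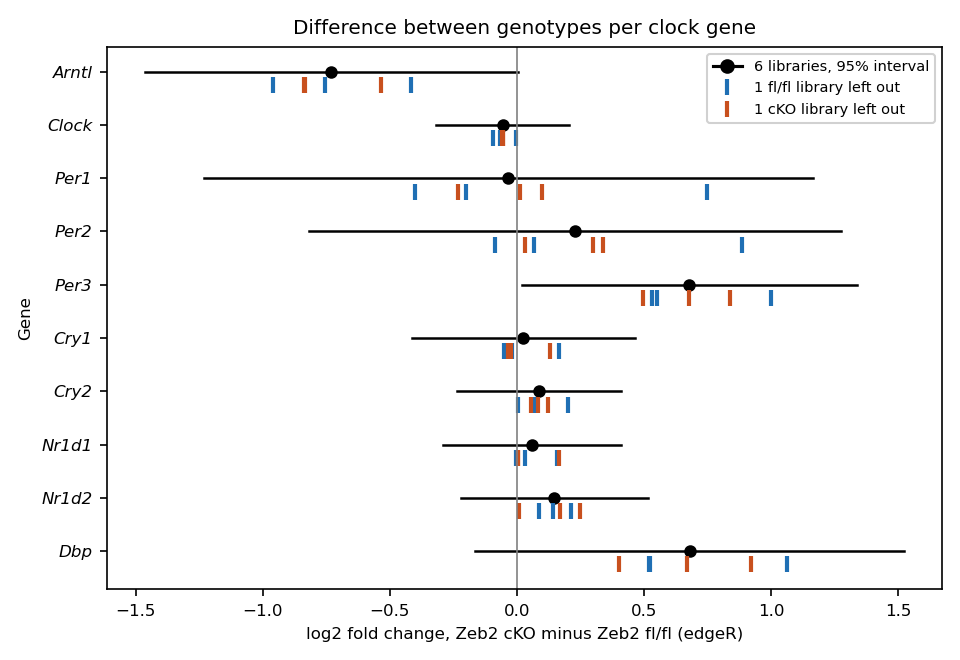
Log2 fold change of each clock gene, cKO minus fl/fl, as estimated by edgeR; the black point and line give all 6 libraries with the 95% interval, and the ticks below give the estimate with 1 library left out. Of the 10 intervals only that of Per3 (0.018 to 1.34) lies wholly on 1 side of 0, and the Per1 ticks fall on both sides.

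Counted together, 0 of the 10 clock genes passed an adjusted p of 0.05 in edgeR, where 0% of all tested genes did. By unadjusted p under 0.05, 1 of 10 was called (Per3, higher in cKO), against a background of 1.9% in either direction and 1.04% on the higher side. In none of the 10 were the 3 hearts of 1 genotype all above the 3 of the other, against 6.36% of tested genes (3.39% with higher and 2.97% with lower values in cKO). The log2 fold change was above 0 in 7 and below 0 in 3, where it was above 0 in 48.6% of all tested genes, and its median was 0.073 beside -0.0069 over all tested genes. Of 429 genes called by DESeq2 at unadjusted p under 0.05, 1.78% of those it tested, 2 were clock genes (Arntl and Per3). DESeq2 left 1 gene of the table past its adjusted p, Slc46a2, which is no clock gene and is named here after its values were seen.

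These counts turned on single hearts. Without fl/fl replicate 1, Arntl, Per2, Per3 and Dbp had an unadjusted p under 0.05 in edgeR, and the hearts separated by genotype in 5 genes higher in cKO (Per1, Per2, Per3, Cry2 and Dbp) and in 1 lower (Arntl). The background moved too, to 7.52% of genes past unadjusted p and to 10.9% separated with higher and 12.1% with lower values. Without fl/fl replicate 2, fl/fl replicate 3, cKO replicate 1 or cKO replicate 2, 0 of the 10 had an unadjusted p under 0.05 in edgeR, with 2.63%, 2.51%, 0.813% and 1.2% of all genes. Clock alone separated without fl/fl replicate 2, with lower values in cKO, where 7.22% of genes separated with lower and 8.31% with higher values. Without cKO replicate 3, Per3 and Dbp had an unadjusted p under 0.05, with 2.49% of all genes, and both separated with higher values, as 11.8% of genes did on that side and 10.8% on the other.

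Levels between genes can be compared only per length, here as CPM per kilobase of exon over the 6 libraries. On that scale Nr1d2 (9.18 ± 1.23, SD) and Nr1d1 (7.90 ± 0.903) were highest, followed by Dbp (4.54 ± 1.93), Clock (3.97 ± 0.190), Per1 (2.34 ± 1.16), Arntl (1.596 ± 0.663), Per3 (1.34 ± 0.474), Cry2 (1.30 ± 0.123), Cry1 (1.04 ± 0.136) and Per2 (0.648 ± 0.269). The ranges of all 9 neighbouring pairs in this order overlapped between libraries. The repressors of Arntl were thus counted at the highest density and a Period gene at the lowest.

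The spread between hearts sorted the genes into 2 kinds. Per1, Per2, Arntl, Dbp and Per3 had log2 ranges of 2.14, 1.74, 1.68, 1.49 and 1.33, against a median of 0.69 over all tested genes. Between 4.87% and 17.2% of tested genes had a larger range than these 5. Nr1d2, Cry1, Cry2, Nr1d1 and Clock had ranges of 0.51 to 0.19, which 65.8% to 96.6% of genes exceeded. The genes of the first kind also varied within genotypes: the within-genotype SD on the log2 scale was 0.80 for Per1, 0.54 for Dbp and 0.47 for Arntl, and the median over all genes was 0.26.

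Arntl and Dbp stood at opposite ends in the outermost hearts. Taking log2 CPM minus the mean of the 6 libraries, Arntl stood at 0.88 in fl/fl replicate 2 and 0.36 in fl/fl replicate 3, where Dbp stood at -0.65 in both. In cKO replicate 1 the signs were exchanged, with Arntl at -0.80 and Dbp at 0.84. The remaining hearts, fl/fl replicate 1 and cKO replicates 2 and 3, lay close together in Arntl, at -0.21, -0.12 and -0.12. Dbp was at 0.28, 0.43 and -0.25 in those 3.

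Over the 6 hearts, Per3 had a Pearson r of -0.93 with Arntl (exact permutation p = 0.0056, adjusted over 9 genes 0.05) and a Spearman rho of -0.83 (exact p = 0.0583, adjusted 0.231). Dbp had an r of -0.89 (exact permutation p = 0.0111, adjusted 0.05) and a rho of -0.77 (exact p = 0.103, adjusted 0.231). Per2 had an r of -0.89 (exact permutation p = 0.0222, adjusted 0.0667) and a rho of -0.89 (exact p = 0.0333, adjusted 0.231). Thus 0 of 9 correlations had an adjusted p under 0.05, Per3 and Dbp being on the threshold, which both passed with RLE size factors in place of TMM. With fl/fl replicate 2 and cKO replicate 1 left out, the 2 hearts farthest from the median of Arntl, r was -0.91 for Per3, -0.83 for Dbp and -0.79 for Per2 in the 4 hearts that remained. After each library was set against the mean of its own genotype, r was -0.88 for Per3, -0.82 for Dbp and -0.94 for Per2, so r kept its sign within genotypes.

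The other clock genes followed Arntl less closely by Pearson r over all 6 hearts, although the rho of Cry2 equalled that of Dbp. Nr1d2 had an r of -0.73 (rho -0.71), Cry2 -0.61 (rho -0.77), Per1 -0.58 (rho -0.66) and Nr1d1 -0.56 (rho -0.37), with adjusted exact permutation p of 0.219, 0.298, 0.298 and 0.352 for r. Cry1 had an r of -0.24 and Clock of 0.14, both with an adjusted exact permutation p of r above those 4 (0.698 and 0.740). Without the 2 outlying hearts Cry1 and Clock had an r of 0.74 and 0.93, and Cry2 had -0.94, beyond the -0.91 of Per3. The relation of these genes to Arntl thus rests on which hearts are counted. The same held for Per1, with an r of -0.029 without fl/fl replicate 2 and -0.93 without cKO replicate 1, and for Nr1d2, with -0.92 and -0.40. Among the genes on the other side of Arntl, Dbp had an r of 0.98 with Per3, 0.90 with Nr1d2, 0.85 with Nr1d1 and 0.82 with Per2, but of 0.42 with Per1. Points of a correlation share library, normalization and cell composition.

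**Figure D3:**
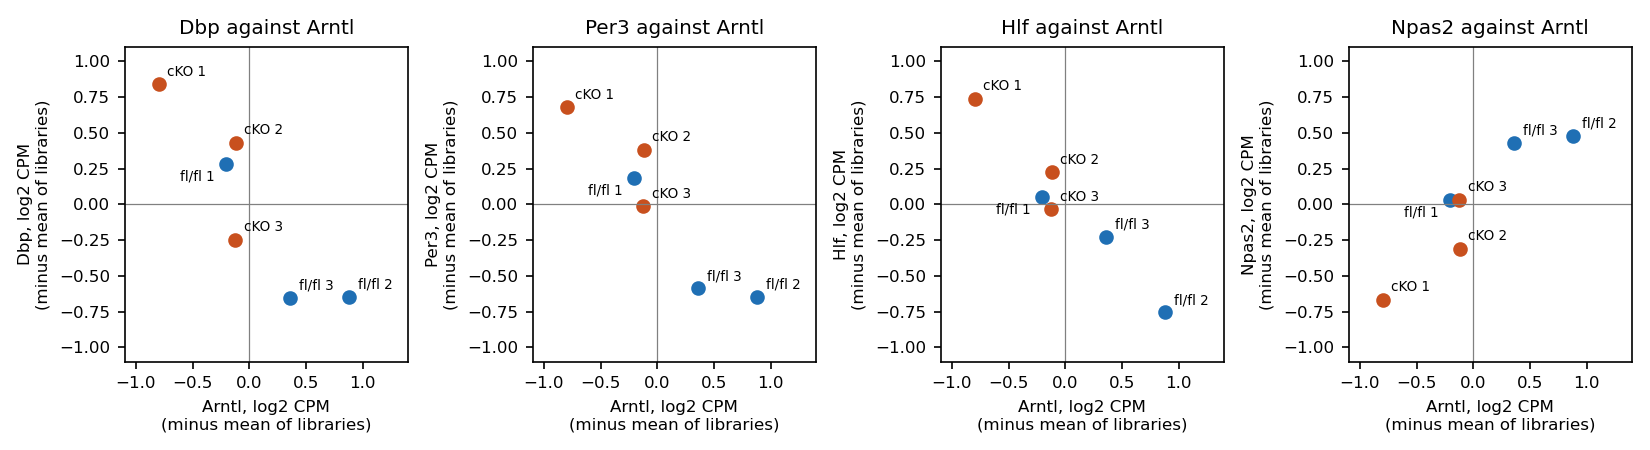
Log2 CPM of Dbp, Per3, Hlf and Npas2 against Arntl in the 6 hearts, each minus its mean over the libraries; blue points are fl/fl and orange points cKO hearts. Dbp, Per3 and Hlf run opposite to Arntl and Npas2 runs with it, and fl/fl replicate 1 lies among the cKO hearts.

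Whether hearts of 1 genotype shared a clock state was read from the difference between Arntl and Dbp, in log2 CPM units. This difference was -0.65, 1.37 and 0.85 in fl/fl replicates 1, 2 and 3 and -1.80, -0.71 and -0.041 in cKO replicates 1, 2 and 3. Means were 0.52 ± 1.05 and -0.85 ± 0.89 (SD, n = 3), and fl/fl replicate 1 lay inside the cKO range. Without fl/fl replicate 2 the difference between genotypes was -0.95 in place of -1.37, and without fl/fl replicate 1 it was -1.96. The measure rests on Arntl and Dbp alone. Nr1d1 and Nr1d2, placed above on the side of Dbp, spanned only 1.28-fold and 1.42-fold over the hearts, against 2.82-fold for Dbp. This limits its reading as a clock state.

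Pairs of hearts were then compared over the 10 genes, as log2 values centred on the 6 libraries, which by itself draws r below 0, and with no test. Hearts of 1 genotype did not resemble each other throughout: r was 0.73 for fl/fl replicates 2 and 3 but -0.85 for replicates 1 and 2 and -0.53 for replicates 1 and 3. Among the cKO hearts, r was 0.74 for replicates 1 and 2, -0.29 for replicates 1 and 3 and -0.37 for replicates 2 and 3. Across genotypes, fl/fl replicate 3 opposed cKO replicates 2 (r = -0.89) and 1 (r = -0.84), whereas fl/fl replicate 1 went with cKO replicate 3 (r = 0.55). The root mean square log2 difference ranged from 0.33 between cKO replicates 2 and 3 to 1.03 between fl/fl replicates 1 and 2, which carry the same label. By this measure, which centring does not affect, cKO replicate 2 was about as near to cKO replicate 1 (0.34) as to cKO replicate 3, and fl/fl replicate 1 was nearer to cKO replicates 3 (0.39) and 2 (0.40) than to either heart of its own genotype (0.73 and 1.03).

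The plot of clock genes by library sets the 10 genes beside 12 further clock transcription factors. All 12 passed the filter, 0 passed an adjusted p of 0.05, and by unadjusted p under 0.05 in edgeR 1 was lower in cKO (Npas2) and 0 were higher, with 0.861% and 1.04% of all genes. Log2 fold changes were above 0 in 8 and below 0 in 4, with a median of 0.14. Npas2, a paralog of Clock that also pairs with ARNTL, was at 3.98, 5.45 and 5.26 CPM in fl/fl and at 2.44, 3.13 and 3.98 CPM in cKO hearts (log2 fold change -0.62, SE 0.23, unadjusted p = 0.0294 in edgeR). Fl/fl replicate 1 and cKO replicate 3 met at the same level, so the groups touched. Its unadjusted p in edgeR was under 0.05 only without fl/fl replicate 1 or cKO replicate 3 when single libraries were left out.

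Hlf and Tef encode the relatives of DBP, and both sided with it. Hlf was at 4.94, 2.80 and 4.06 CPM in fl/fl and at 7.97, 5.58 and 4.65 CPM in cKO hearts (log2 fold change 0.63, SE 0.28, unadjusted p = 0.0591 in edgeR). Tef, whose both RefSeq windows hold a CACGTG E-box and the CACCTG letters of ZEB sites, was at 46.4, 28.6 and 40.0 CPM in fl/fl and at 63.4, 49.1 and 40.8 CPM in cKO hearts (log2 fold change 0.42, SE 0.23, unadjusted p = 0.117 in edgeR). Bhlhe40, a repressor that binds E-boxes, was at 21.6, 18.6 and 20.7 CPM in fl/fl and at 29.8, 21.4 and 24.9 CPM in cKO hearts (log2 fold change 0.32, SE 0.15, unadjusted p = 0.0704 in edgeR). In each of these 3 genes the cKO replicate 1 heart was highest, the fl/fl replicate 2 heart lowest, and the groups overlapped. With fl/fl replicate 2 left out, the log2 fold changes of Hlf, Tef and Bhlhe40 were 0.43, 0.24 and 0.26, and without cKO replicate 1 they were 0.38, 0.23 and 0.19.

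**Figure D4:**
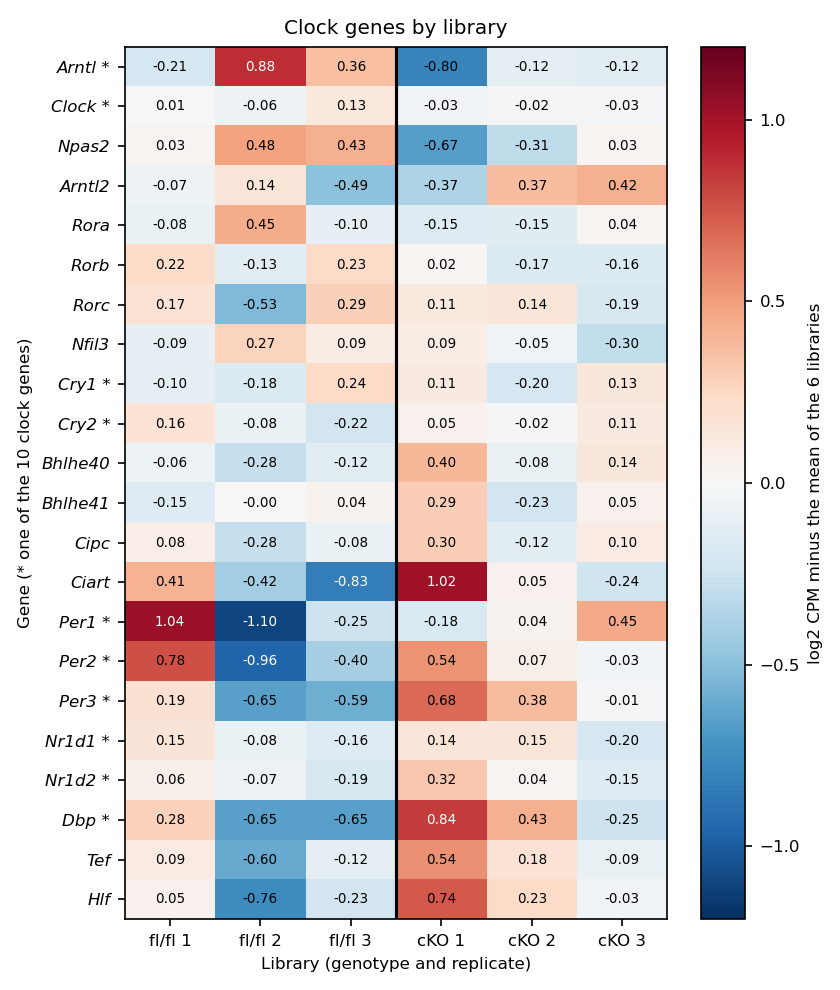
Clock genes by library; each cell gives log2 CPM minus the mean of the 6 libraries, red above and blue below that mean, with the 10 clock genes marked by an asterisk and 12 further clock transcription factors unmarked. Fl/fl replicate 2 and cKO replicate 1 show opposite colours in Arntl (0.88 and -0.80), Dbp, Tef and Hlf, and Clock stays near 0 in all 6 libraries.

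By Pearson r over the 6 hearts, given as a description, Hlf was the 18th and Tef the 55th most opposed to Arntl of the 14745 other tested genes (r = -0.97 and -0.96), and Per3 the 147th. Npas2 had an r of 0.91 with Arntl and of -0.96 with Dbp. Rora, a ROR activator of Arntl, had an r of 0.78 with Arntl, while Nfil3, a D-box repressor, had 0.48. The genes most like Arntl were Eogt (r = 0.992), Zfp326 (0.992), Zxdb (0.990), Fgl2 (0.988) and Ifi213 (0.986). Those most like Dbp were Caprin2 (r = 0.992), Zranb3 (0.991), BC037032 (0.991), D830026I12Rik (0.986) and Plrg1 (0.986), with Per3 9th. With 6 hearts such values are common: 2.52% of all genes had an r above 0.9 with Arntl and 2.42% an r below -0.9.

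Kinases and ubiquitin ligases set the stability of PER and CRY proteins. All 8 of the list, which also holds Timeless, were tested and 0 had an unadjusted p under 0.05 in edgeR, where 1.9% of all genes did, with a median log2 fold change of -0.051. Gsk3b, a kinase of several clock proteins, was at 46.7, 49.2 and 47.4 CPM in fl/fl and at 37.1, 38.1 and 46.5 CPM in cKO hearts. Its groups did not overlap, as was the case for 2.97% of genes on the lower side, but its log2 fold change was -0.24 (unadjusted p = 0.109 in edgeR). Fbxl21 (-0.42) and Fbxw11 (-0.095), both ligase subunits, and Btrc (0.14) had the next smallest p of the list, from 0.380 to 0.398 in edgeR. Single libraries moved these values. Fbxl21 was at -0.088 without cKO replicate 1 and -0.83 without cKO replicate 3. Btrc was at 0.015 without fl/fl replicate 2 and 0.23 without fl/fl replicate 1.

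Of 12 genes known as clock outputs in heart or other tissues, 12 were tested, 0 had an unadjusted p under 0.05 in edgeR, where 1.9% of all genes did, and the median log2 fold change was 0.15. Usp2, a deubiquitinase gene with a robust rhythm, was at 31.4, 11.1 and 21.6 CPM in fl/fl and at 37.0, 27.5 and 27.4 CPM in cKO hearts (log2 fold change 0.52, unadjusted p = 0.185 in edgeR). Its lowest value was that of fl/fl replicate 2, without which the log2 fold change was 0.21, and without fl/fl replicate 1 it was 0.91. Tspan4 and Dgat2, an enzyme of triglyceride synthesis, had log2 fold changes of -0.32 and 0.61 (unadjusted p = 0.214 and 0.242 in edgeR), which were -0.0011 and 0.20 without fl/fl replicate 2. Summed over the list, the mean centred log2 level was -0.65 in fl/fl replicate 2 and between -0.016 and 0.27 in the other libraries, and the part of cell composition in that was not tested.

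Signals that reset or override the clock were examined through 2 further lists. Of 6 glucocorticoid-responsive genes, all were tested and all had a log2 fold change below 0 (median -0.37), where 48.6% of all genes had one above 0. By unadjusted p under 0.05 in edgeR, 1 was lower in cKO, where 0.861% of all genes were: Ddit4, an inhibitor of mTORC1 signalling (log2 fold change -0.73, SE 0.30, unadjusted p = 0.0436 in edgeR, Benjamini-Hochberg adjusted p = 0.957). Fkbp5, a chaperone of the glucocorticoid receptor, had a log2 fold change of -0.57 (unadjusted p = 0.0706 in edgeR), and Sgk1, a kinase, of -0.35 (unadjusted p = 0.193 in edgeR). Of 6 immediate early genes, 6 were tested, and 2 had a log2 fold change above 0 (Fos, 0.050, and Fosb, 0.36) and 4 below 0 (median -0.16). By unadjusted p under 0.05 in edgeR, 1 was lower, where 0.861% of all genes were: Junb, at 11.6, 7.31 and 9.22 CPM in fl/fl and at 5.90, 7.05 and 6.07 CPM in cKO hearts (log2 fold change -0.57, SE 0.19, unadjusted p = 0.0213 in edgeR). Its hearts did not overlap by genotype, as in 2.97% of all genes on the lower side. Atf3 had a log2 fold change of -0.52 (unadjusted p = 0.114 in edgeR). With fl/fl replicate 1 left out, the log2 fold changes of Ddit4, Sgk1, Junb and Atf3 were -0.46, -0.091, -0.38 and -0.16, and without fl/fl replicate 2 that of Fkbp5 was -0.24. Each change was larger with another library left out. Sgk1 and Junb were at -0.55 and -0.72 without fl/fl replicate 2, and Fkbp5 at -0.76 without fl/fl replicate 1. Atf3 was at -0.76 without fl/fl replicate 3 and Ddit4 at -1.03 without cKO replicate 3. Per1, which responds to the same signals, was highest in fl/fl replicate 1. The mean centred log2 level of the glucocorticoid-responsive list (0.44) and of the immediate early list (0.59) was highest there too. Of single genes, Fkbp5 was highest in fl/fl replicate 2 (0.81), where Per1 was lowest, and Fos and Fosb in cKO replicate 2 (0.98 and 1.17). The other members of both lists were highest in fl/fl replicate 1. In cKO replicate 3, the heart next highest in Per1, the lists stood at 0.024 and -0.30. The coincidence was not tested.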

How the data were processed

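RNA-seq of 3 Zeb2 fl/fl (labelled WT) and 3 Zeb2 cKO hearts, taken 14 days after MI, was re-analysed from raw counts per gene, which the authors deposited without normalization. According to the methods of the study, the authors depleted ribosomal RNA, sequenced strand-specific single-end reads of 75 bases, and aligned and counted them on Gencode M4 (GRCm38) with the STAR workflow; the aligner version, strand option and handling of shared reads are not given in the sources used here. The submitters' processing notes name DESeq 1.2, which was not used here.

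Columns were assigned to samples by their names, and 0 were left unused. Counts were TMM-normalized and filtered with filterByExpr, and genotypes were compared with glmQLFit and glmQLFTest in edgeR 4.0.16 (R 4.3.3), with Benjamini-Hochberg adjustment over 14746 genes. Standard errors were derived from the F statistics, and fold changes used a prior count of 0.125. Log2 CPM used a prior count of 2, and correlations were tested over all 720 pairings of the libraries, single genes over all 20 splits. DESeq2 1.42.0 was an alternative, beside other size factors, no filter, no mitochondrially encoded genes, a replicate block and leaving out each library. The steps were tested on simulated data. Depth was 37288174 to 51136331 counts per library. The error given for the lowest count covers counting alone, whereas the 95% intervals of log2 fold changes rest on the standard errors above.

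Coordinates came from Gencode M21 (GRCm38), promoter windows from RefSeq (GRCm38.p6), and near-identical copies from BLAST 2.17.0 (Python 3.11.15) at 75 bases and 95% identity or more. The 10 genes and the gene lists were chosen with earlier results of these data known. Named beside them were Zeb2, up to 3 genes of each list with the smallest p, and the 5 genes most like Arntl and the 5 most like Dbp. Tef, Btrc, Rora, Nfil3, Bhlhe41, Sphk2, Thra, Slc46a2, Fos, Fosb and the single adipocyte markers were named after their results were seen.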

Additional observations from a re-analysis of the deposited data

How the results depend on the processing

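No clock gene passed an adjusted p of 0.05 under any setting run; DESeq2 called 1 gene of the table (Slc46a2) and edgeR 0, with 280 genes at unadjusted p under 0.05 in edgeR and 429 in DESeq2. Numbers of clock genes at unadjusted p under 0.05 were 1 higher and 0 lower in cKO as reported. Without the filter (2.49% of genes called) and with DESeq2 (1.78%), 1 was lower (Arntl), and 1 gene of the transcription factor, kinase and output lists was higher in place of 0. Replicate numbers occur in both groups but did not pair the hearts (correlations of same-numbered deviations 0.088, -0.14 and -0.087). With a replicate block (1.68% of genes called), 2 clock genes were higher and 1 lower (Per3, Dbp and Arntl), 1 gene of those lists was higher, and Per1 reversed to a log2 fold change of 0.22. With RLE size factors, 2 correlations with Arntl passed (Per3, r = -0.93, and Dbp, r = -0.89), where 0 did with TMM.

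Leaving out each library in turn gave 0 to 3 clock genes higher and 0 to 1 lower at unadjusted p, 0 to 5 separated by genotype with higher and 0 to 1 with lower values in cKO, and 0 to 2 genes of those lists in either direction. The difference in Arntl minus Dbp lay between -1.96 and -0.90. Log2 fold changes took either sign for Per1 (-0.40 to 0.75), Per2 (-0.088 to 0.89), Cry1 (-0.051 to 0.17) and Nr1d1 (-0.0041 to 0.17), as did the r with Arntl of Cry1 (-0.60 to 0.19) and Clock (-0.52 to 0.77). The cause was not tested. Of the recomputed fold changes and correlations of single genes, 352 kept their direction and their side of an adjusted p of 0.05, 2 passed it and 13 reversed. Keeping that side says little for the fold changes, whose adjusted p in edgeR was 0.957 or more from the start. With 1 library left out, fewer pairings also limit how small the exact p of a correlation can be. Unadjusted p crossed 0.05 more often, as the counts above show. With 1 sampling per mouse and 3 mice per genotype, genotype, mouse and hour of collection cannot be separated, and exact tests of single genes cannot go below 0.1.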
